A study of Homo sapiens with 10 samples.

Results

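The genes described here are the integrin chains, the subunits of the main cell surface receptors for the extracellular matrix, and the laminin chains, the subunits of the trimeric glycoproteins that form the core of basement membranes. They were taken from a list of 35 gene names, 25 integrin chains and 10 laminin chains, out of 61533 genes in the count tables. The list was set by gene family, and it was chosen with earlier results of these data known. The tables hold RNA-seq counts from the human bladder cancer line T24 and from T24R2, which was derived from T24 by repeated cisplatin exposure, with 5 libraries of each on day 3 of culture. T24R2 is 1 derived line, and the study's methods keep it in medium with cisplatin while the labels give both lines the same drug-free medium, so line and drug exposure cannot be told apart. No source states that the 5 libraries of a line came from separate cultures, so p-values measure only the spread between these libraries, which may be technical. The comparison asks how the matrix receptors and the laminins that the resistant line transcribes differ from those of the parental line.

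An integrin is a pair of 1 alpha and 1 beta chain, and the pair sets the ligand. ITGA3, ITGA6 and ITGA7 pair with ITGB1, and ITGA6 also with ITGB4, to bind laminins. ITGA1, ITGA2, ITGA10 and ITGA11 pair with ITGB1 to bind collagens, while ITGA5 and the ITGAV pairs bind the RGD motif of fibronectin, vitronectin and related proteins. A laminin is a trimer of 1 alpha, 1 beta and 1 gamma chain. Urothelium and other epithelia rest on laminins and hold them through hemidesmosomes, in which the ITGA6 and ITGB4 pair links laminin to keratin filaments.

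Total counts were 9257843 to 10840954 per library, and each of the 20 pairs of libraries within a line differed beyond sampling noise (chi-square divided by its degrees of freedom, 2.01 to 7.04). Of 12 urothelial and epithelial markers, 8 were above the floor of 3 counts in T24 and 7 in T24R2. Their summed level was 4942 to 5674 CPM in T24 and 3012 to 3216 CPM in T24R2 (CPM, counts scaled to the TMM-normalized library size). Almost all of it came from KRT7, KRT8 and KRT18. Mean levels of KRT19, GATA3 and EPCAM went from 267, 22.1 and 4.45 CPM in T24 to 0.0887, 0.214 and 0.130 CPM in T24R2. Those of PPARG went from 75.9 to 26.2 CPM and of UPK2 from 9.90 to 2.74 CPM, while KRT20 was at 0 in both lines. Leukocyte markers summed to 196.2 to 227.2 CPM in T24 and 0.535 to 1.39 CPM in T24R2, with 2 of 8 above the floor in each line. The T24 sum came almost entirely from LAPTM5. The general leukocyte marker PTPRC was above the floor only in T24R2, whose libraries held 2 to 10 counts of it, while no T24 library held more than 1. CD14 was above the floor only in T24, with 4 to 16 counts, and reached at most 2 in the resistant line. MS4A1 and TYROBP were at 0 in both lines. Endothelial markers (4 of 6 above the floor in T24, 3 in T24R2) summed to 225.8 to 277.6 and 1.60 to 2.78 CPM, almost all from CDH5 in T24, and fibroblast and smooth muscle markers (4 of 8 and 3 of 8) to 14.2 to 16.4 and 4.46 to 5.69 CPM. The part of other cell types in the results was not tested. In bulk libraries, fewer cells of a type and less RNA per cell cannot be told apart.

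Most chains that could be tested differed between the lines, with more of them lower in T24R2 than higher. Of the 35 genes, 28 passed edgeR's filter on low counts, and 24 of these were called (adjusted p under 0.05, log2 fold change beyond 0.5 in either direction), 9 higher and 15 lower in T24R2. Among all 16181 genes tested, 51.4% were called, 24.9% higher and 26.5% lower, so a call by itself is common in this comparison. CPM values of the lines did not overlap for 21 of the 28 chains, beside 61.2% of all genes tested. Integrin chains had 7 genes called higher, 10 lower and 2 not called of 19 tested, with a median log2 fold change of -0.64. Laminin chains had 2 called higher, 5 lower and 2 not called of 9 tested, with a median of -0.87. Over all genes tested the median was 0.0145, and the median absolute log2 fold change was 0.54.

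The difference between receptor and laminin chains was not tested. At a mean of at least 10 CPM over the libraries, where 46.4% of all genes tested were called, 20.3% higher and 26.1% lower, there were 12 integrin chains, of which 3 (ITGAV, ITGB3 and ITGA11) were called higher, 8 lower and 1 not called. There were 7 laminin chains at this level, of which 0 were called higher, 5 lower and 2 not called (LAMA3 and LAMB2). Genes such as LAMA4 and ITGA11 reached this level through the line in which they were high, and the medians of the integrin and laminin chains at this level were -0.92 and -1.16. The other 6 chains called higher (ITGA7, ITGA9, ITGA10, ITGB2, LAMA1 and LAMA2) were below this level, and the genes left out by the filter were ITGA4, ITGA8, ITGAL, ITGAM, ITGB6, ITGB7 and LAMC3.

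**Figure D1:**
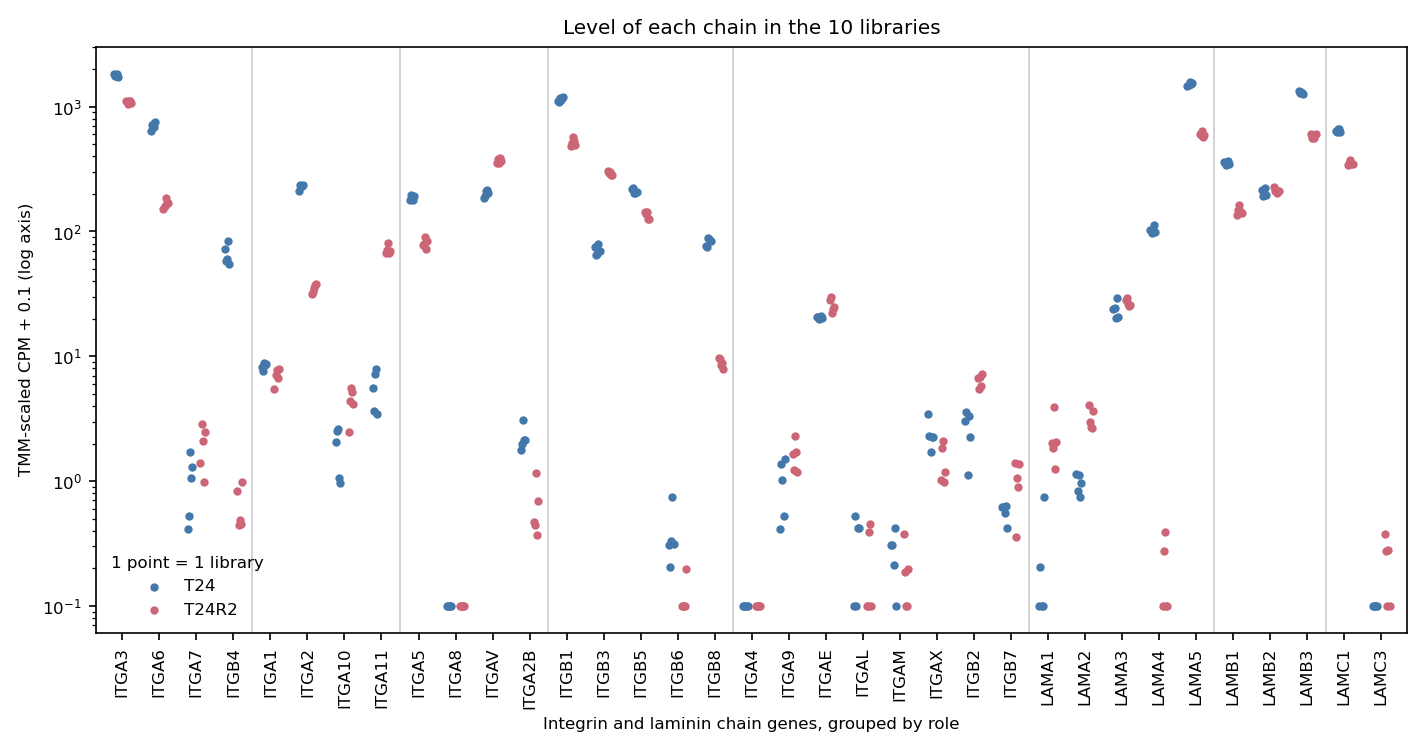
Each point is 1 library, the horizontal axis lists the 35 chain genes by role, and the vertical axis gives TMM-scaled CPM plus 0.1 on a log axis. ITGB4, ITGB8 and LAMA4 of T24R2 lie far below T24, while ITGA11 and ITGB3 lie above it, with no overlap between the lines for these 5 genes.

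**Figure D2:**
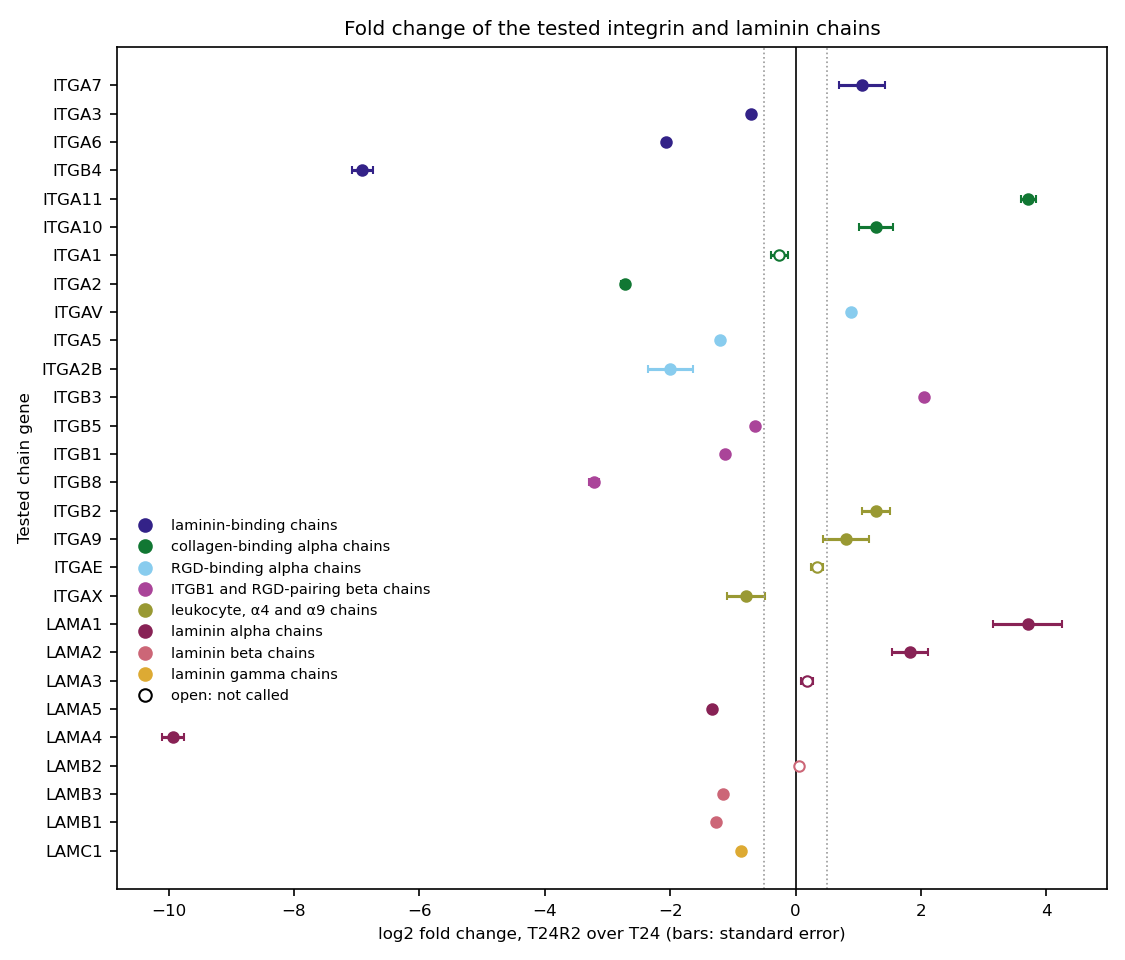
Points are fitted log2 fold changes of T24R2 over T24 for the 28 tested chains, coloured by role, bars are standard errors, open points were not called, and dotted lines mark the fold change threshold of 0.5. The fitted values run from -9.93 (LAMA4) to 3.71 (ITGA11), with 15 filled points to the left and 9 to the right.

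Promoter sequences were available for 25 of the 35 genes in a RefSeq table of GRCh38.p14, and each of the 25 equalled the hg38 genome at its place. The 250 bases before the start are shown for the 3 genes with the largest falls and for 2 of the 3 abundant genes that rose, as far as the table held them, so that the genes can be found and compared by composition. Capitals mark the GC box, GGGCGG on either strand, the letters of the binding site of SP1-like factors. The windows are LAMA4 at chr6:112254568-112254817 on the minus strand, ITGB8 at chr7:20330650-20330899 on the plus strand, ITGA2 at chr5:52989102-52989351 on the plus strand, ITGA11 at chr15:68432164-68432413 on the minus strand and ITGAV at chr2:186589806-186590055 on the plus strand.
LAMA4: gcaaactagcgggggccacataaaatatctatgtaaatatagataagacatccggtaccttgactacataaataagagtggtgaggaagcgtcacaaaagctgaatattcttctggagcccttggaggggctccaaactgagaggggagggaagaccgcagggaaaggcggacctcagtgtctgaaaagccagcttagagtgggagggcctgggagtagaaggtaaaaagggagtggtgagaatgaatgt
ITGB8: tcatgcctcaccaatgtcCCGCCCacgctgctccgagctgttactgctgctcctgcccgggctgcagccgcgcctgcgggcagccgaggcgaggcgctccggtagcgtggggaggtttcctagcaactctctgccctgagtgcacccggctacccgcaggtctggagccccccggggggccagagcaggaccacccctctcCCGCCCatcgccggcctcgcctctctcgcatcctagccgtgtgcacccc
ITGA2: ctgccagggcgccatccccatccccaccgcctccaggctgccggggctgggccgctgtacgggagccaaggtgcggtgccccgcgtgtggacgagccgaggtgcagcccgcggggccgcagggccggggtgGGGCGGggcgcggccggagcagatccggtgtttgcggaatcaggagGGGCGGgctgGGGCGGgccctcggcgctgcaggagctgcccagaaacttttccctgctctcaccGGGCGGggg
ITGA11: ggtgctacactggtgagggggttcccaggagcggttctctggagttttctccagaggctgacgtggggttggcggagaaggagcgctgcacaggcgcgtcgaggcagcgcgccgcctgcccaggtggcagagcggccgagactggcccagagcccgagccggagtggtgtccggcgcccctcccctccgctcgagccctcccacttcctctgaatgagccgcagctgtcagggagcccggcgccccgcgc
ITGAV: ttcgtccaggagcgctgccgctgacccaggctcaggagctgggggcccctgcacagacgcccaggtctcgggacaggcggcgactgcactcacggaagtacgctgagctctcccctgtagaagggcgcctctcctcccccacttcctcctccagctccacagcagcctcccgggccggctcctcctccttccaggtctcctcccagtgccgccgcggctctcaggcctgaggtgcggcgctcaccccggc
ITGA2 held 4 GC boxes in these bases, 119, 73, 63 and 9 bases before the start, and ITGB8 held 2, at 232 and 49 bases. LAMA4, ITGA11 and ITGAV held none. The LAMA4 window had 8 CpG dinucleotides in the 300 bases from 250 before to 50 after the start, fewer than ITGA11 (29), ITGB8 (28), ITGA2 (27) and ITGAV (23), beside a median of 14 over all 35116 promoters of the table. Of 12 chains called lower with a promoter in the table, 10 held a GC box in the 300 bases, and of 4 called higher, 0 did, beside 45% of all promoters. The AP-1 letters TGANTCA were in 1 of the 12 and 0 of the 4 (7.71% of all promoters), and the TATA box letters TATAAA in 1 and 0 (11.5%). ITGA6 held the TATA box 32 bases before its start. The 3 motifs were searched on both strands, and none contains another. These windows start at 1 RefSeq position per gene, and that position lies 372 bases from the gene start in the count tables for LAMA4, 198 for ITGB8, 12 for ITGA2 and 0 for ITGA11 and ITGAV. For ITGB1, which is among the 10 chains called lower with a GC box, the RefSeq position lies 47562 bases from that gene start. Matches are descriptions of letters, and binding was not measured.

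Among the laminin-binding integrin chains, the pair of the hemidesmosome, ITGB4 and ITGA6, had the largest falls. ITGB4, the beta chain whose long cytoplasmic tail joins keratin filaments through plectin, lies at chr17:75721328-75757818 (GRCh38, the build of the tables, as for all positions given). Its level was 71.7, 58.2, 60.3, 83.8 and 54.3 CPM in the 5 T24 libraries and 0.734, 0.347, 0.384, 0.356 and 0.885 CPM in T24R2. All T24 libraries were far above all T24R2 libraries, which held 4 to 9 counts each. The ratio of the summed counts was 123-fold (95% exact interval 85.5 to 184, counting error only), and the adjusted p was 5.7e-31 (quasi-likelihood test of edgeR, Benjamini-Hochberg method). ITGA6, its only alpha partner, was at 636.4, 713.6, 723.2, 685.2 and 751.8 CPM in T24 and at 151.0, 159.1, 184.6, 169.3 and 169.8 CPM in T24R2. The lines did not overlap, and the log2 fold change was -2.07 (SE 0.05). Thus transcripts of both chains of this receptor fell, by different amounts. Per exon length (TPM, which divides counts by exon length and scales each library to 1 total), ITGA6 stood at 11.2 ± 2.43 (SD, n = 5) times ITGB4 in T24 and at 367 ± 151 times in T24R2, where the ratio rests on the few ITGB4 counts.

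ITGA3, which pairs with ITGB1 as a receptor for epithelial laminins, was the most abundant integrin chain of both lines by TPM. It was at 1838, 1757, 1758, 1835 and 1734 CPM in T24 and at 1113, 1053, 1110, 1103 and 1073 CPM in T24R2, a log2 fold change of -0.71 (SE 0.04) without overlap. ITGA7, the laminin receptor chain known from muscle, was called higher (log2 fold change 1.06, SE 0.37, adjusted p = 0.011 by edgeR) at levels of only 0.311 to 1.60 CPM in T24 and 0.891 to 2.77 CPM in T24R2. Those ranges overlapped. The opposite-strand gene BLOC1S1, which shares 1.31% of the exon bases of ITGA7, held 427% of its counts, so the source of these few counts is uncertain, and the call was lost without T24R2 replicate 2 (log2 fold change 0.87).

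The collagen receptor chains moved in opposite directions. ITGA2, the alpha chain of the main epithelial collagen receptor, was at 212.3, 234.3, 232.5, 233.0 and 237.5 CPM in T24 and at 31.3, 32.6, 35.4, 37.2 and 37.9 CPM in T24R2. The lines were well apart, with a log2 fold change of -2.72 (SE 0.06, edgeR adjusted p = 7.9e-34). ITGA11, a receptor chain for fibrillar collagen best known from fibroblasts, lies at chr15:68296532-68432163 and was at 5.50, 3.58, 7.08, 7.74 and 3.35 CPM in T24. In T24R2 it was at 66.8, 71.5, 80.8, 66.9 and 69.0 CPM, so that every T24R2 library exceeded every T24 library. Its log2 fold change was 3.71 (SE 0.12, edgeR adjusted p = 2.1e-27). The TPM of ITGA2 was 65.5 ± 26.4 (SD, n = 5) times that of ITGA11 in T24 and 0.679 ± 0.0752 times in T24R2, so the order of these 2 collagen receptor chains was reversed. Of the fibroblast and smooth muscle markers, COL1A1 and PDGFRB were lower in T24R2, with PDGFRB at 0 counts in all of its libraries. MYH11 had a log2 fold change of -0.43, and ACTG2 had 4 to 8 counts in T24 and 2 to 9 in T24R2. COL3A1 had 0 counts in T24 and 0 to 3 in T24R2, and COL1A2, DCN and LUM had at most 1 count in any library. The part of fibroblast transcripts in the level of ITGA11 was not tested.

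ITGA10, a collagen receptor chain of cartilage, was called higher from 0.864 to 2.51 CPM in T24 to 2.39 to 5.47 CPM in T24R2, with overlapping ranges and a log2 fold change of 1.28 (SE 0.27). An opposite-strand gene sharing 1.96% of its exon bases held 13.5% as many counts. ITGA1, a receptor chain for collagen IV, was at 7.47 to 8.68 CPM and 5.41 to 7.77 CPM and was not called (log2 fold change -0.26, SE 0.14, edgeR adjusted p = 0.10).

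Among the RGD receptors, ITGAV and ITGB3 rose while ITGA5 and ITGB1 fell. ITGAV, the alpha chain of the vitronectin receptors, was at 184.4, 192.0, 209.1, 215.5 and 201.4 CPM in T24 and at 355.1, 377.4, 355.6, 386.2 and 364.3 CPM in T24R2. Every T24R2 library exceeded every T24 library, and the log2 fold change was 0.88 (SE 0.05). ITGB3, which joins ITGAV in the vitronectin receptor, lies at chr17:47253827-47313743. It was at 75.4, 64.3, 65.5, 79.7 and 69.8 CPM in T24 and at 302.4, 296.1, 301.1, 283.7 and 282.4 CPM in T24R2, again without overlap, with a log2 fold change of 2.05 (SE 0.05, edgeR adjusted p = 1.7e-30). ITGAV stood at 2.19 ± 0.219 times the TPM of ITGB3 in T24 and 0.969 ± 0.0608 times in T24R2 (SD, n = 5). Of the exon bases of ITGB3, 35.7% are shared with a second gene model on the same strand, and counting as recorded in the file headers leaves out fragments that fall on both. Over the remaining bases the ratio of ITGAV to ITGB3 was 1.41 ± 0.141 in T24 and 0.623 ± 0.0391 in T24R2, so its size depends on the length used while it was lower in T24R2 either way.

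ITGA5, the fibronectin receptor chain, was at 177.6 to 195.4 CPM in T24 and 72.2 to 90.6 CPM in T24R2 (log2 fold change -1.20, SE 0.05). ITGB1, the common partner of the laminin, collagen and fibronectin receptor alpha chains, was at 1107, 1091, 1165, 1127 and 1187 CPM in T24 and 479.7, 513.6, 569.1, 532.5 and 492.7 CPM in T24R2. Neither gene overlapped between the lines, and the log2 fold change of ITGB1 was -1.13 (SE 0.04, edgeR adjusted p = 2.3e-24). By TPM, ITGB3 was 0.144 ± 0.0147 times ITGB1 in T24 and 1.31 ± 0.0945 times in T24R2 (SD, n = 5). Over the bases of ITGB3 not shared with the other gene model, the ratio was 0.223 ± 0.0229 and 2.03 ± 0.147, whereas on the CPM scale, which does not divide by length, ITGB1 stayed ahead of ITGB3 in both lines.

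Other beta partners of ITGAV fell. ITGB8, whose pair with ITGAV binds latent TGF-beta, was at 76.8, 75.4, 88.9, 86.7 and 83.1 CPM in T24 and at 9.54, 9.45, 8.35, 8.73 and 7.77 CPM in T24R2. It was lower in all 5 resistant libraries, with a log2 fold change of -3.22 (SE 0.08, edgeR adjusted p = 5.6e-31). ITGB5, which pairs with ITGAV to bind vitronectin, went from 201.6 to 221.8 CPM in T24 to 126.7 to 142.8 CPM in T24R2 (log2 fold change -0.64, SE 0.05). Without TMM scaling its log2 fold change was -0.47, which is below the threshold. ITGB6, the epithelial partner of ITGAV that also binds latent TGF-beta, had 13 counts over the T24 libraries and 1 over those of T24R2 and was not tested. ITGA2B, the platelet fibrinogen receptor chain, was near the limit of detection at 1.66 to 2.97 CPM and 0.267 to 1.06 CPM and was called lower (log2 fold change -2.0, SE 0.36), and ITGA8 had 0 counts in all libraries.

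The chains usual in leukocytes were at low levels, and most leukocyte markers were at or near 0 too. ITGAE, the alpha chain that binds E-cadherin in resident T cells, was the most abundant of them, at 19.7 to 20.9 CPM in T24 and 22.1 to 29.7 CPM in T24R2. Those ranges did not overlap, but the log2 fold change of 0.34 (SE 0.09) was under the threshold, and HASPIN on the opposite strand held 86.8% as many counts as ITGAE. ITGB2, the common beta chain of leukocyte integrins, was at 2.91, 3.47, 1.03, 3.23 and 2.16 CPM in T24 and at 6.61, 5.38, 6.72, 5.70 and 7.08 CPM in T24R2. It was called higher (log2 fold change 1.28, SE 0.22), but ITGB2-AS1, which shares 4.41% of its exon bases, went from 0.986 ± 0.443 to 5.34 ± 0.790 CPM (SD, n = 5). With all counts of ITGB2-AS1 taken off, the log2 ratio of ITGB2 was -0.72. That step also takes off counts from bases the genes do not share, so it cannot set the direction of ITGB2. The part of ITGB2-AS1 in the counts of ITGB2 was not tested. ITGAX, a chain of myeloid cells, was at 1.60 to 3.32 and 0.891 to 2.02 CPM with a log2 fold change of -0.79 (SE 0.30, edgeR adjusted p = 0.018). ITGA9, a receptor chain for tenascin, was at 0.311 to 1.40 and 1.08 to 2.21 CPM with a log2 fold change of 0.80 (SE 0.37, edgeR adjusted p = 0.046). Both overlapped between the lines and were lost when single libraries were left out, and ITGA9-AS1 held 261% of the counts of ITGA9. Leaving out T24 replicate 1, T24R2 replicate 1 or T24R2 replicate 4 lost both calls, with log2 fold changes of -0.62, -0.67 and -0.66 for ITGAX and 0.58, 0.80 and 0.79 for ITGA9. For ITGA9 alone, T24 replicate 3 (0.82), T24 replicate 4 (0.63) and T24R2 replicate 3 (0.64) did so too. ITGA4 had 0 counts in all libraries, and ITGAL, ITGAM and ITGB7 had too few counts to be tested, with at most 14 in any library.

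Shares of summed TPM show what the receptor pool was made of. Laminin-binding chains made up 77.4 ± 0.478% of alpha chain TPM in T24 and 65.4 ± 0.820% in T24R2 (SD, n = 5, as for all shares). Within them, ITGA6 went from 28.3 ± 1.44% to 12.0 ± 0.715%, while ITGA3 went from 49.1 ± 1.86% to 53.4 ± 1.11%, a larger share of a smaller pool. RGD-binding chains went from 13.5 ± 0.291% to 26.7 ± 0.673%, through ITGAV, which rose from 6.57 ± 0.333% to 21.5 ± 0.909%. ITGA2 went from 7.84 ± 0.235% to 2.12 ± 0.157% and ITGA11 from 0.135 ± 0.0489% to 3.13 ± 0.220%. No share named in these sentences overlapped between the lines.

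Among beta chains, ITGB1 went from 56.9 ± 1.82% to 34.1 ± 1.69% and ITGB3 from 8.15 ± 0.635% to 44.3 ± 0.974%. By TPM, ITGB3 was thus the leading beta chain in T24R2. TPM here divides by all annotated exon bases of a gene, 14561 for ITGB1 and 6340 for ITGB3. Which of these 2 chains led in T24R2 depends on these lengths. Over its exon bases not shared on the same strand, ITGB3 held 12.1% in T24 and 55.3% in T24R2. On the CPM scale ITGB1 held 53.7% in T24R2 against 30.5% for ITGB3. By TPM, ITGB5 went from 23.6 ± 1.38% to 19.9 ± 0.745%, ITGB4 from 7.07 ± 1.21% to 0.0774 ± 0.0379% and ITGB8 from 3.95 ± 0.257% to 0.555 ± 0.0467%. On the CPM scale ITGB5 held 13.4 ± 0.887% in T24 and 14.1 ± 0.718% in T24R2 with overlapping ranges, so its smaller share depends on dividing by length. Some neighbours in the order of levels lay within their spread. By TPM, ITGA2, ITGA5 and ITGAV did not separate in T24 (89.4 ± 4.72, 77.3 ± 3.37 and 74.9 ± 5.78). ITGB3 and ITGB4 overlapped in T24 by their full lengths (34.4 ± 3.43 and 29.8 ± 5.66) but not over unshared bases, where ITGB3 held 11.3 to 13.3% of beta chain TPM and ITGB4 5.57 to 8.45%.

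**Figure D3:**
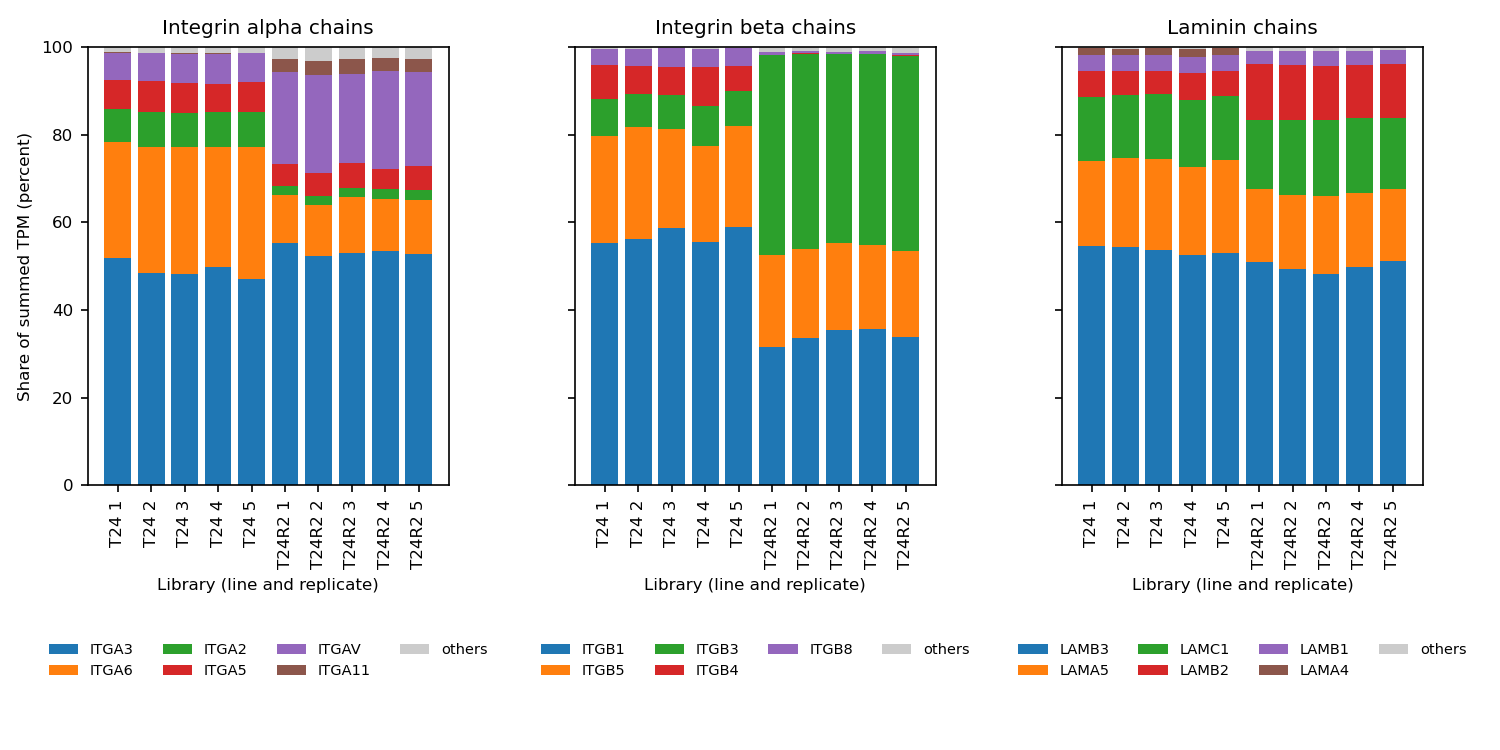
Stacked bars give, for each library, the share in percent of each named chain in the summed TPM of integrin alpha chains, integrin beta chains and laminin chains. ITGAV and ITGB3 take larger shares in all 5 T24R2 libraries than in any T24 library, whereas the laminin bars, led by LAMB3 in both lines, differ mainly in the larger share of LAMB2 in T24R2.

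The laminin alpha chains, which carry the domains that integrins bind, ranged in fitted log2 fold change from -9.93 (LAMA4) to 3.70 (LAMA1). LAMA5, the widespread alpha chain of epithelial basement membranes, was at 1451, 1494, 1566, 1505 and 1557 CPM in T24 and 603.1, 588.5, 641.4, 576.1 and 594.4 CPM in T24R2. It fell by 1.33 on the log2 scale (SE 0.04, edgeR adjusted p = 5.7e-28) without overlap between the lines. LAMA5 also lies opposite ADRM1, which held 17.8% as many counts and had a log2 fold change of 0.05. With all counts of its opposite-strand genes taken off, also those from bases not shared, the log2 ratio of LAMA5 was -1.69. LAMA4, the alpha chain of vascular and mesenchymal basement membranes, lies at chr6:112107931-112254939 and was at 103.4, 96.4, 100.9, 111.8 and 98.9 CPM in T24. In T24R2 it had 0, 2, 3, 0 and 0 counts, against 883 to 1039 counts in the T24 libraries. The ratio of the lines was 1108-fold (95% exact interval of the summed counts 475 to 3420, counting error only), the largest fall among the chains, with an edgeR adjusted p of 1.9e-36. The endothelial marker CDH5 likewise had 2037 to 2599 counts in T24 and 1 to 9 in T24R2, PECAM1 had 35 to 60 and 8 to 18 counts, KDR had 0 counts in all T24 libraries, and the part of endothelial transcripts in the fall of LAMA4 was not tested.

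LAMA3, the alpha chain of the laminin that anchors hemidesmosomes, was at 20.3 to 29.3 CPM in T24 and 25.2 to 29.1 CPM in T24R2 and was not called (log2 fold change 0.18, SE 0.09, edgeR adjusted p = 0.070). The receptor chain ITGB4 therefore fell 123-fold while this ligand chain differed by a ratio of 1.13 (95% exact interval 1.05 to 1.23 of the summed counts). LAMA1, an alpha chain of early embryonic basement membranes, had 7 counts over the T24 libraries and 114 over those of T24R2, a ratio of 13.9 (95% exact interval 6.55 to 35.5). In T24, 3 of the 5 libraries had 0 counts, and 6 of the 7 counts were in replicate 5. Leaving out that library moved the fitted log2 fold change from 3.70 to 5.76. LAMA2, the alpha chain of muscle and nerve basement membranes, was at 0.645 to 1.04 CPM and 2.58 to 3.95 CPM, with a log2 fold change of 1.83 (SE 0.29). An opposite-strand gene sharing 2.43% of its exon bases held 66.3% as many counts and moved alike (log2 fold change 1.79). LAMA1 and LAMA2 each remained below 4 CPM in every library, and LAMA5 made up 91.2 ± 0.665% of laminin alpha chain TPM in T24 and 95.2 ± 0.266% in T24R2.

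Of the 4 beta and gamma chains tested, 3 fell and LAMB2 was not called. LAMB3, the beta chain of the hemidesmosomal laminin, was the most abundant chain of all 35 by TPM in both lines. It was at 1329, 1296, 1311, 1277 and 1254 CPM in T24 and 601.3, 561.5, 567.0, 557.3 and 598.3 CPM in T24R2 (log2 fold change -1.16, SE 0.04). LAMB1, the beta chain of many laminins, was at 342.4 to 367.4 CPM in T24 and 134.5 to 163.1 CPM in T24R2 (log2 fold change -1.27, SE 0.05). DLD on the opposite strand shares 1.61% of the exon bases of LAMB1, held 52.4% as many counts and was higher in T24R2 (log2 fold change 0.79). LAMC1, the gamma chain of most laminins, was at 623.9 to 666.7 CPM and 338.7 to 371.5 CPM (log2 fold change -0.87, SE 0.04). None of these 3 genes overlapped between the lines.

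LAMB2, a beta chain of neuromuscular and kidney basement membranes, was at 213.1, 193.8, 195.2, 224.1 and 196.5 CPM in T24 and 225.8, 209.7, 215.8, 201.4 and 211.9 CPM in T24R2. The lines overlapped, with a log2 fold change of 0.06 (SE 0.05, edgeR adjusted p = 0.27). Its share of laminin TPM went from 5.73 ± 0.347% to 12.5 ± 0.293% as the other abundant chains fell. Over the same libraries, LAMB3 went from 53.6 ± 0.845% to 49.9 ± 1.22%, LAMA5 from 20.4 ± 0.751% to 16.9 ± 0.478% and LAMC1 from 14.7 ± 0.271% to 16.7 ± 0.682%. In T24R2, LAMA5 and LAMC1 did not separate by TPM (151 ± 5.04 and 149 ± 5.20). LAMC3, a rare gamma chain, had 0 counts in T24 and 7 in T24R2 and was not tested.

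Most of the genes for basement membrane partners of laminins were lower in T24R2. Of 12 such genes, 11 were tested, and 9 were called lower (81.8%, beside 26.5% of all genes tested) and 2 higher (18.2%, beside 24.9%), with a median log2 fold change of -1.08. HSPG2, which encodes perlecan, was at 464.5 to 522.6 CPM in T24 and 2.60 to 4.80 CPM in T24R2 (log2 fold change -7.04, SE 0.08), with 11.7% of its exon bases overlapped from the opposite strand. COL4A1 and COL4A2, the widespread collagen IV chains, had log2 fold changes of -3.70 (SE 0.06) and -3.52 (SE 0.05). The 2 called higher were COL4A4 (3.28, SE 0.36) and the nidogen NID2 (1.71, SE 0.30), both at or under 5.23 CPM in every library. RTRAF, transcribed from the other strand, covers 30.7% of NID2 exon bases and had a mean of 1428 counts against 25.1 for NID2, so the source of the NID2 counts is uncertain.

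Hemidesmosome and tetraspanin partners gave 3 genes called lower, 0 higher and 4 not called of 7. The share called lower was 42.9%, beside 26.5% of all genes tested, and the share called higher 0%, beside 24.9%. In either direction 42.9% were called, beside 51.4% of all genes tested. The tetraspanins CD82 and CD151, the latter a partner of the laminin-binding integrins, had log2 fold changes of -4.17 (SE 0.10) and -1.98 (SE 0.05). COL17A1, the transmembrane collagen of hemidesmosomes, had one of -1.88 (SE 0.15). POLR2L overlaps 6.6% of CD151 exon bases from the opposite strand, at a mean of 2629 counts against 3468 for CD151. CD82-AS1 overlaps 6.93% of those of CD82, at 88.3 against 423.5 counts. Non-integrin laminin receptors split evenly, with 3 called higher and 3 lower of 6 tested (50% each, beside 24.9% and 26.5% of all genes tested). SDC2 (log2 fold change 3.76, SE 0.31), BCAM (0.70, SE 0.05) and the dystroglycan gene DAG1 (0.69, SE 0.05) were higher. The syndecans SDC1 (-2.43, SE 0.05), SDC3 (-1.84, SE 0.05) and SDC4 (-1.58, SE 0.04) were lower.

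The cytoplasmic adapters that couple integrins to actin had the median nearest to 0 of the 4 partner lists. Of 29 such genes, 27 were tested, 7 were called higher and 6 lower, and the median log2 fold change was 0.02. The shares called, 25.9% higher and 22.2% lower, were near those of all genes tested. TNS1, a tensin, rose with a log2 fold change of 2.51 (SE 0.14), FERMT3, the kindlin of blood cells, with 1.81 (SE 0.12, with TRPT1 overlapping 3.03% of its exon bases from the opposite strand at a mean of 455.4 counts against 182.9) and the talin TLN2 with 1.66 (SE 0.14). PTK2B, a kinase related to focal adhesion kinase, had a log2 fold change of -2.40 (SE 0.07), the scaffold gene BCAR1 one of -1.0 (SE 0.06) and TNS3 one of -0.96 (SE 0.05).

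**Figure D4:**
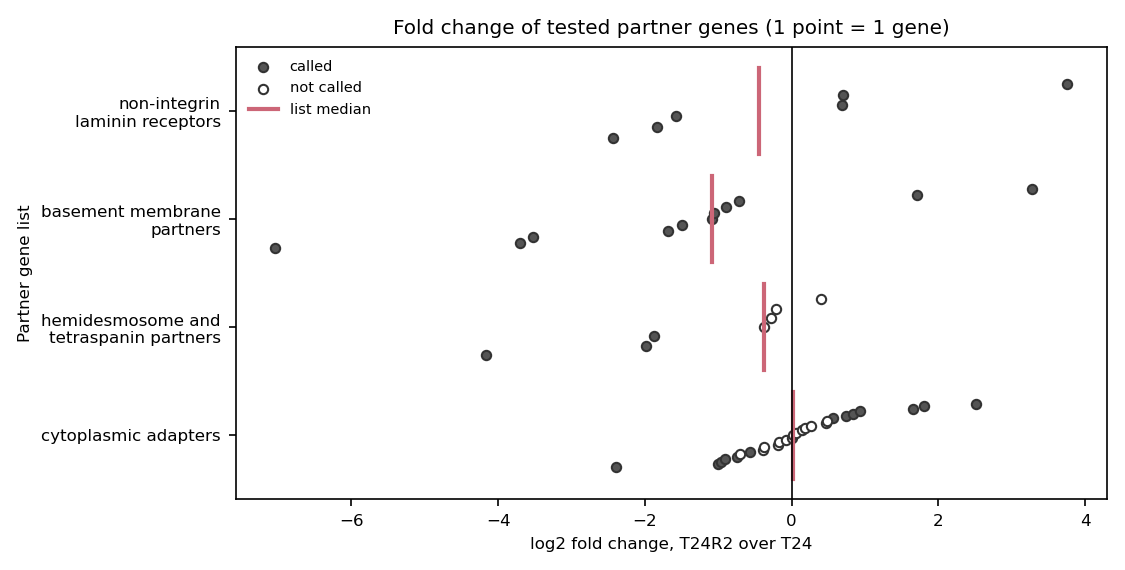
Each point is a tested gene of 1 of 4 partner lists, placed by its log2 fold change of T24R2 over T24, filled where called, and the vertical lines are list medians. Basement membrane partners centre on -1.08 and cytoplasmic adapters on 0.02. Every tested basement membrane partner and non-integrin laminin receptor was called, beside 51.4% of all genes tested.

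The fold changes were also set beside those of the genes around each chain on its chromosome. For 26 of the 28 tested chains at least 5 other tested genes lay within 1 Mb, and the median log2 fold change of these neighbours ran from -0.848 to 1.13, with 7 medians beyond 0.5 in either direction. ITGB4 had 64 such neighbours, of which 52 were called lower and 3 higher, with a median of -0.848, much smaller in size than the change of ITGB4 itself. ITGB3 had 38, of which 33 were called higher and 1 lower, with a median of 1.06, beside a log2 fold change of 2.05 for ITGB3. ITGAV had 5 neighbours, of which 3 were called higher and 2 lower, with a median of 0.982. LAMA5 had 33 with a median of -0.508, 17 called lower and 0 higher.

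LAMB1 went against its surroundings, with 12 neighbours at a median of 1.13 while it fell. LAMA4 fell beside 9 neighbours with a median of 0.332, and ITGA11 rose far above the median of its 16 neighbours, 0.464. Over a window of 5 Mb the median beside ITGB4 was -0.791, whereas that beside ITGB3 was 0.133 and that beside ITGAV 0.161. The part of the surroundings in these changes was not tested.

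**Figure D5:**
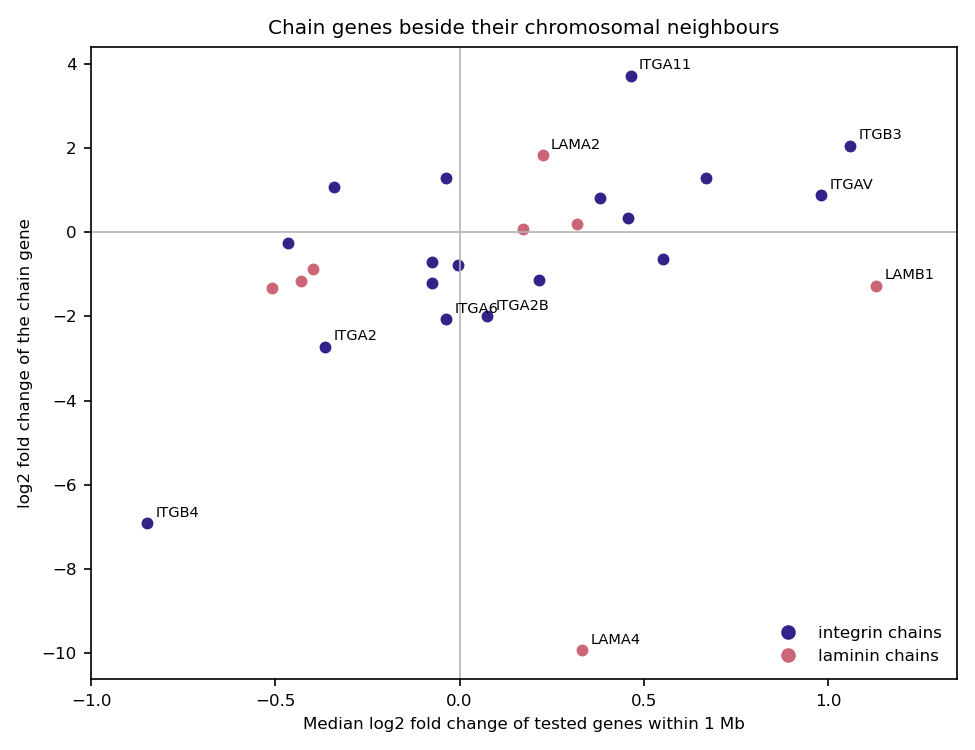
Each point is 1 chain gene with at least 5 tested neighbours, with the median over tested genes within 1 Mb on the horizontal axis and its own log2 fold change on the vertical axis. ITGB4 is at the lower left and ITGB3 and ITGAV at the upper right, while LAMB1 and LAMA4 fell beside neighbours whose medians are above 0.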

How the data were processed

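RNA-seq libraries of T24 and T24R2 (5 each) were analysed; other assays of the study were not analysed here. Per the labels and methods, the authors used STAR 2.7.0 (hg38) for alignment and SAMtools 1.10 to drop duplicates and multiply mapped reads, and deposited raw fragment counts per gene of GENCODE release 39 from featureCounts 2.0.1, run with strand option 1. The named kit is not described as strand-specific, so reads of a gene and of an opposite-strand gene may not be told apart, and fragments on 2 genes of 1 strand were left out. The steps that removed duplicates may lower the counts of abundant transcripts.

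Counts were tested with edgeR 4.0.16 in R 4.3.3 (filterByExpr, TMM, glmQLFit, glmQLFTest, Benjamini-Hochberg adjustment over 16181 genes), with calls at an adjusted p under 0.05 and a log2 fold change beyond 0.5 in either direction. CPM used TMM-scaled library sizes. TPM used the exon lengths of the tables, which take in all annotated exons of a gene, and served to compare genes. Shares, ratios and sums of TPM were also compared between the lines, without a test. Intervals are exact binomial, at 95%, and cover counting error only, as does the floor of 3 counts. The square root of the common dispersion was 6.61%. Counts were also simulated for 16181 genes from the T24 means, with the same dispersion for every gene and 200 genes changed by known folds. Of these, 189 changed genes and 2 unchanged genes were called. In the real comparison 51.4% of genes were called, so the simulation does not give its error rate. Exon overlaps came from the tables, and symbols were found for 61369 of 61533 identifiers. Tables were handled with Python 3.11.15, pandas 2.3.3, numpy 2.4.6 and SciPy 1.17.1, and drawn with matplotlib 3.10.9.

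The members and lists were chosen with earlier results of these data known. Named genes were all members and, of each partner list, up to 3 called genes with the largest absolute log2 fold change in each direction. Opposite-strand genes with over 10% of a member's counts were also named, as were some opposite to partner genes. Marker genes were named after their values were seen. Alternatives were other scalings and filters, DESeq2 1.42.0, limma-voom (limma 3.58.1), a replicate block, other thresholds, opposite-strand counts taken off, and each library left out.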

Additional observations from a re-analysis of the deposited data

Results flagged for a closer look

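ITGA2 in T24 replicate 1 was at 212.3 CPM, apart from the other 4 T24 libraries at 232.5 to 237.5 CPM. This was the only library that stood apart from its line in this way among 56 sets of 5 libraries examined, where about 2.8 would do so by chance. The distance is small beside the level in T24R2 (31.3 to 37.9 CPM), and the log2 fold change of ITGA2 was between -2.75 and -2.68 whichever library was left out.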

How the results depend on the processing

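Of the 24 called chains, ITGB2 alone reversed, to -0.72 on the log2 scale, with all opposite-strand counts taken off, from shared bases or not. Such a step could not be done for ITGA7, ITGA9, ITGAE and LAMB1, whose opposite genes hold too many counts. At a mean of at least 100 counts, 3 integrin chains and 0 laminin chains were called higher, because low genes were no longer tested, and over all genes 2350 were called higher and 2641 lower. With no fold change minimum 6128 genes were called higher, and over a log2 fold change of 1, 1918 higher and 2293 lower. Without members overlapped over 10% from the opposite strand, a setting chosen after seeing the data that leaves out LAMA1, 1 laminin chain was called higher. On the CPM scale the shares were 56.7% (T24) and 58.8% (T24R2) for ITGA3, 19.8% for ITGAV in T24R2, 72.4% and 53.7% for ITGB1, 4.52% and 30.5% for ITGB3, 31.3% and 30.1% for LAMB3, and 92.3% and 94.9% for LAMA5 of the alpha chains. By CPM the shares of ITGA3 and of LAMB3 overlapped between the lines, and LAMA5 held 36.6% (T24) and 31.3% (T24R2) of the laminin chains. Over exon bases not shared on the same strand, also chosen after seeing the data, the shares were 54.4% and 27.3% for ITGB1 and 12.1% and 55.3% for ITGB3.

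Same-numbered replicates did not deviate together (correlations 0.002 to 0.0596), so the numbers do not pair the lines. With the replicate block, 6 in place of 7 integrin chains were called higher, ITGA9 (0.83) being lost. ITGA9 was also lost with DESeq2 (0.81) and without the count filter (0.80). Library size alone moved the median of all genes from 0.0145 to 0.177, and ITGB5 (-0.47) and ITGAX (-0.62) lost their calls while ITGAE (0.51) gained one. The calls of ITGA7, ITGA9 and ITGAX, all under 4 CPM in every library, depended on single libraries, and the cause was not tested.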

Other observations

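Genes on the strand opposite to a chain often moved with it. They were picked after their values were seen. The gene opposite LAMA4, which shares 1.72% of its exon bases, went from 6.67 ± 0.699 CPM in T24 to 0.0184 ± 0.0410 CPM in T24R2 (SD, n = 5). ITGB8-AS1 had a log2 fold change of -3.35 beside -3.22 for ITGB8, and ITGA6-AS1 one of -2.10 beside -2.07 for ITGA6. LAMA5-AS1 and LAMA5 had the same value, -1.33. HASPIN and DLD went the other way from ITGAE and LAMB1, with log2 fold changes of -0.47 and 0.79. Whether these counts are transcripts of their own or fragments of the opposite gene was not tested.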
